A study of Bos taurus with 20 samples.

Results

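Transcripts were followed for 7 genes of the hair shaft and of the inner root sheath, the layered sleeve that moulds a growing hair inside its follicle. They are KRT25, KRT27, KRT71, TCHH, PADI3, GATA3 and KRTAP1-1, and they were read from the 21475 features of a cattle array. A probe was taken where the description in the scanner files names the gene, or, where none did, where its gene identifier belongs to it. By that choice 6 of the 7 genes had a described probe and TCHH had a probe by identifier only, which the files themselves describe as similar to repetin. A second probe by identifier alone exists for KRTAP1-1 (described as keratin associated protein 1-3) and for KRT25 (described as keratin 24), and both are given apart.

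Total RNA came from skin biopsies holding epidermis, dermis and the connective tissue beneath, taken at the place where horns form on the skull. There were 4 polled (hornless) cattle, 1 male and 3 females, 4 scurred cattle (with loose, rudimentary horns), 3 males and 1 female, and 3 horned cattle, 2 males and 1 female. Polled replicate 3 and scurred replicate 2 also gave skin from the skull away from the horn site, so 13 RNAs were measured on 20 two-colour arrays of 5 chips. On each of chips 1 to 4 a loop of 4 arrays linked 1 animal of every horn type, and horned replicate 2 served on chips 2 and 4. On all 4 of these chips sex differed between the polled animal and its scurred counterpart. The labels used here give no age, breed or stage of the hair cycle, and a biopsy holds whatever follicles lay in it. The basal keratins KRT5 and KRT14, which define the labelled tissue as skin, were measured in all 11 animals.

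The inner root sheath is built from keratins of its own. KRT25 and KRT27 are acidic type I keratins that pair with basic type II keratins such as KRT71. TCHH, trichohyalin, is the protein of the sheath's granules that hardens around those filaments after PADI3, a peptidylarginine deiminase, has converted its arginines to citrulline and transglutaminases have cross-linked it. GATA3 is a transcription factor needed for the inner root sheath lineage and is also used by the epidermis and by T lymphocytes. KRTAP1-1 is a keratin associated protein of the hair cortex, part of the matrix between shaft filaments. Changes in the sheath keratins are known from curly coats in several mammals, and the sheath is made only while a follicle is growing a hair.

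What the arrays read is the signal of a 60-base probe for each gene. The probes of KRT25, KRT27, KRT71, TCHH, PADI3 and GATA3 are printed 5′ to 3′ in lower case as the scanner files hold them. The values stand for these sequences and not for whole transcripts. All but the GATA3 probe carry the pattern described next. No capitals are used, since no part of a probe was singled out.
KRT25: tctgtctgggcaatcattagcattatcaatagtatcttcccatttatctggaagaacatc
KRT27: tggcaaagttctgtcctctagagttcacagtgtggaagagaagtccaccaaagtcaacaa
KRT71: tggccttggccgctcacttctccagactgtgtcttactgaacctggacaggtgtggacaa
TCHH: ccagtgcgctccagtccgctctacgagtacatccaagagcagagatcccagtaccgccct
PADI3: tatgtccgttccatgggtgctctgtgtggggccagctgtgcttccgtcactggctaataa
GATA3: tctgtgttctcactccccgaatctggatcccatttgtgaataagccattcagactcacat

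The probes of the KRTAP1-1 pair differ in how they read the same 13 RNAs, so both are printed, the first matched by its description and the second by the gene identifier that RefSeq now gives to KRTAP1-1.
KRTAP1-1 by description: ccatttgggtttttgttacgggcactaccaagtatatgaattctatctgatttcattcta
KRTAP1-1 by gene ID: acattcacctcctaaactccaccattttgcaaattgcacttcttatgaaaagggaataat

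The sheath genes were brightest in 3 of the 13 RNAs. In the others, readings reached at most 258 (PADI3) beside an RNA that was not bright. Beside a bright RNA they reached 321 for KRT71, 788 for TCHH and 359 for PADI3. These exceeded the lowest readings of the bright RNAs, at 171, 361 and 283, while KRT25 and KRT27 did not overlap. The bright RNAs were horn site skin of polled replicates 2 and 4 and the control-site skin of scurred replicate 2. KRT25, KRT27, KRT71, TCHH and PADI3 shared this pattern, and GATA3, measured in every RNA, did not. In bulk skin, fewer cells of a type and less RNA per cell cannot be told apart.

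KRT25 read 34304, 35506 and 36223 units of mean spot intensity in polled replicate 2 and 2400, 8526 and 9419 in polled replicate 4. Polled replicate 1 read 70 to 97 and polled replicate 3 read 76 to 126, with none of these 8 readings well above background at both spots. Horned replicates 1 and 3 read 109 to 154 and 74 to 102, and scurred replicates 1 and 3 read 78 to 81 and 98 to 100. Thus 2 polled animals stood far above the other 2, which overlapped the range of the horned and scurred animals. Horned replicate 1 was well above background in 3 of 3 readings, none of them beside a bright RNA, and polled replicate 1 in 0 of 3. Within a chip, the log2 difference from the horned animal was 5.77 in polled replicate 2 and 5.16 in polled replicate 4. Polled replicates 1 and 3 and scurred replicates 1 and 3 were not well above background, so their differences enter the fit but carry no fold and are not given.

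KRT27, which assembles with the type II sheath keratins as KRT25 does, read 12121, 12289 and 12804 in polled replicate 2 and 586, 2062 and 2124 in polled replicate 4. Its readings in polled replicates 1 and 3 lay between 70 and 105, and those of horned replicates 1 and 3 between 69 and 98. The log2 differences were 4.87 for polled replicate 2 and 3.30 for polled replicate 4. Polled replicates 1 and 3, scurred replicates 1 and 3 and their horned partners were not well above background on any array.

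KRT71, the type II partner, read 1232, 1260 and 1306 in polled replicate 2 and 171, 397 and 413 in polled replicate 4. Polled replicates 1 and 3 read 70 to 102, beside 69 to 98 in horned replicates 1 and 3, with none of these readings well above background. The log2 differences were 2.15 and 1.15 in polled replicates 2 and 4. All 3 keratins were higher in polled replicate 2 than in polled replicate 4.

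TCHH read 6313, 6551 and 6578 in polled replicate 2 and 361, 1408 and 1439 in polled replicate 4, against 82 to 148 in polled replicates 1 and 3. Its log2 differences in polled replicates 1 to 4 were −0.07, 3.62, 0.18 and 2.21, and those in scurred replicates 1 to 4 were 0.84, 0.39, 0.03 and −0.07. All of these differences rest in part on readings not well above background. On chips 2 and 4 such readings came only from the array of the horned and the scurred animal, where horned replicate 2 read 92 and 83. Scurred replicate 1 read 150 and 224, both well above background, so this gene was not limited to the 3 bright RNAs. PADI3, the enzyme that acts on trichohyalin, read 2557, 2616 and 2664 in polled replicate 2 and 283, 814 and 834 in polled replicate 4. Polled replicate 1 followed at 164 to 256 and scurred replicate 1 at 160 and 258. The log2 differences of PADI3 were 0.81, 3.31, 0.04 and 1.89 in polled replicates 1 to 4 and 0.72, 0.11, −0.01 and 0.08 in scurred replicates 1 to 4. On chips 2, 3 and 4 the readings behind these values were in part not well above background. On chips 2 and 4 this held for horned replicate 2 beside the scurred animal, at 90 on both. The enzyme was low but measured on chip 1, where the 3 sheath keratins of the polled and scurred animals were not well above background.

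KRTAP1-1 depended on the probe. The described probe read 66 to 123 over all RNAs and was well above background at both spots in 1 of its 40 readings, from polled replicate 4. The probe by identifier read 386, 464 and 498 in polled replicate 2, 153, 457 and 459 in polled replicate 4, and 115 and 154 in the control-site skin of scurred replicate 2, and was well above background in all 8. Elsewhere it read 70 to 157, and 1 of 32 readings was well above background. Its log2 differences in polled replicates 2 and 4 were 2.0 and 1.08, against 0.49 and 0.14 with the described probe. Neither probe was measured in enough animals to be tested.

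**Figure D1:**
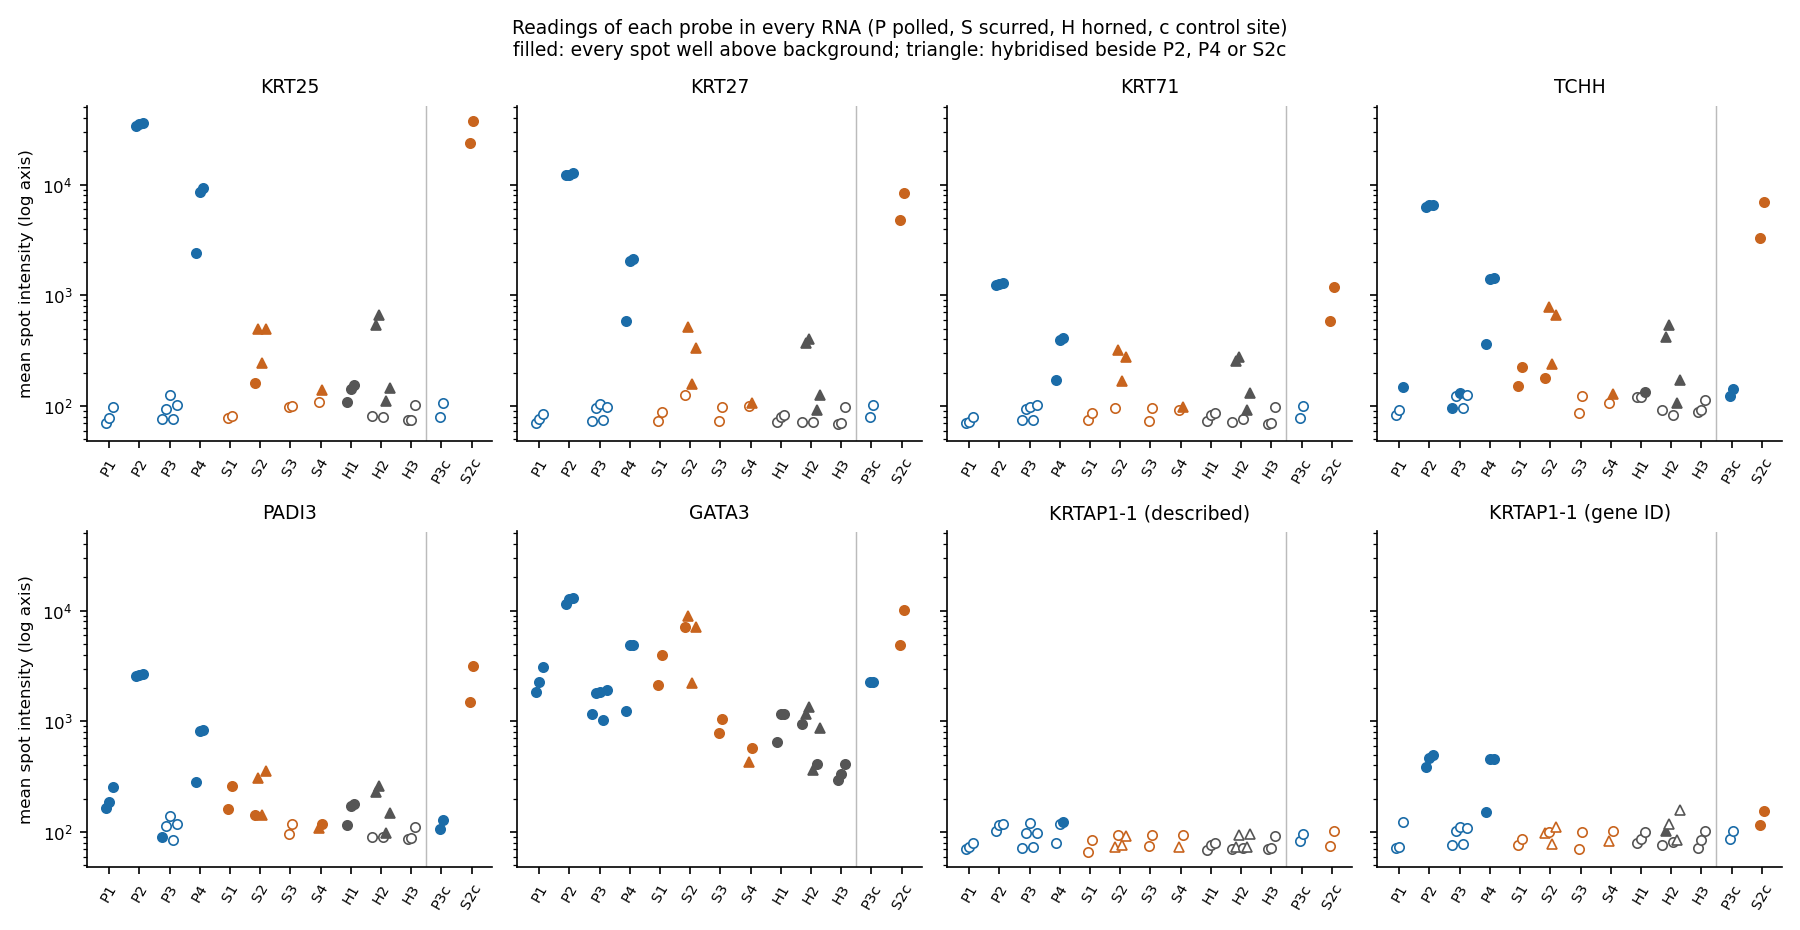
Mean spot intensity (log axis) of each probe in every RNA, 1 point per array and channel, for polled (P), scurred (S) and horned (H) animals and, right of the line, control-site skin (c). KRT25, KRT27, KRT71, TCHH and PADI3 have their highest readings in P2, P4 and S2c, and the lowest P4 readings of KRT71, TCHH and PADI3 overlap other RNAs. GATA3 is filled in all RNAs, and the triangles (RNAs hybridised beside P2, P4 or S2c) lie above the same RNA's circles for KRT27 in H2 and S2.

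Readings of the other channel moved with these bright RNAs. KRT27 in horned replicate 2 read 369 and 405 on the arrays shared with polled replicate 2 but 72 beside scurred replicate 2, and on chip 4 it read 91 and 125 beside polled replicate 4 but 71 beside scurred replicate 4. Scurred replicate 2 read 522 beside polled replicate 2 and 126 beside horned replicate 2. Over the 10 other RNAs, KRT27 was well above background in 8 of 8 readings taken beside a bright RNA and in 0 of 24 taken beside any other, and KRT71 gave the same counts. KRT25 gave 8 of 8 and 4 of 24, TCHH 8 of 8 and 9 of 24, and PADI3 8 of 8 and 13 of 24. So the within-array ratios for polled replicates 2 and 4 are set against a partner signal that was higher than the same RNA showed elsewhere. KRT27 and KRT71 also entered the tests through 5 animals, 3 of which (horned replicate 2 and scurred replicates 2 and 4) were measured on such arrays only. The part of this in the differences was not tested.

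Horned replicate 2 was the reference for both bright polled animals, since it lay on chips 2 and 4. On the arrays that paired scurred replicate 2 or 4 directly with this horned animal, neither RNA was well above background for KRT27 or KRT71, and for KRT25 only scurred replicate 2 was, at 160. Polled replicate 2 was the male and polled replicate 4 a female, so the bright polled animals were not of 1 sex.

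The question of the main comparison is how polled skin differs from horned skin at the horn site, with sex as a term of the fit. None of the 6 members tested passed in polled minus horned (limma, adjusted p under 0.05, 0.00637% of 15709 probes, which is 1 probe). The fitted log2 difference was 3.09 for KRT25 (SE 0.901, adjusted p 0.472), 2.50 for KRT27 (SE 0.617, adjusted p 0.453) and 1.03 for KRT71 (SE 0.298, adjusted p 0.472). It was 1.83 for TCHH (SE 0.582, adjusted p 0.489), 1.84 for PADI3 (SE 0.417, adjusted p 0.426) and 2.26 for GATA3 (SE 0.662, adjusted p 0.472).

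At an unadjusted p under 0.05, 6 of the 6 members tested were on the higher side in polled skin, where 4.72% of all probes did, with a median difference of 2.05 beside 0.01 over all probes. Because KRT27 and KRT71 passed the filter only through animals where they were high or through partners of those animals, this share does not stand for all 7 genes. The count also depended on the model, with 2 of 6 without the sex term, 2 of 6 with no replicate block, 1 of 6 without polled replicate 2 and 0 of 6 without chip 2. Polled replicates 2 and 4 were singled out because these genes were bright in them, so the 6 of 6 members with a log2 difference over 1 in both (2.77% of all probes) are a description only. A difference above 0 in all 4 polled animals was found for 2 of 6, PADI3 and GATA3, and for 14% of all probes. With polled replicates 2 and 4 left out, the fitted difference was 0.12 for KRT25, 0.06 for KRT27, −0.14 for KRT71, −0.43 for TCHH, 0.27 for PADI3 and 0.05 for GATA3. That fit was chosen after the values were seen, and the 2 polled animals left in it are female and were set against male horned animals, so its values lean on the sex term. Without polled replicate 2 alone the difference was 0.63 for KRT71, 1.16 for TCHH and 1.02 for GATA3.

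The comparison of scurred with horned skin gave small differences for the sheath genes. No member passed (limma, 0% of 15709 probes adjusted, 251 higher and 333 lower at an unadjusted p under 0.05, none of them a member). The fitted differences were −0.77 for KRT25 (SE 0.858), −0.41 for KRT27 (SE 0.588), −0.21 for KRT71 (SE 0.284), −0.03 for TCHH (SE 0.554) and −0.05 for PADI3 (SE 0.397). Without the sex term they were −0.476 for KRT25, −0.175 for KRT27 and −0.106 for KRT71. Within chips, KRT27 and KRT71 were above 0 in 3 of 4 scurred animals, in part on readings not well above background. The fitted signs of these 2 keratins were thus not those of most animals. GATA3 stood at 1.37 (SE 0.631, adjusted p 1).

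The comparison of scurred with polled skin tests whether the differences of the 2 horn types from horned skin are unlike. No member passed (limma, 0% of 15709 probes adjusted). The fitted difference was −3.86 for KRT25 (SE 0.874), −2.91 for KRT27 (SE 0.599), −1.24 for KRT71 (SE 0.289), −1.86 for TCHH (SE 0.564) and −1.89 for PADI3 (SE 0.404), each with an adjusted p of 0.795. GATA3 stood at −0.90 (SE 0.643, adjusted p 0.88). At an unadjusted p under 0.05, 5 of 6 members tested lay lower in scurred than in polled skin (3.07% of all probes), with the limit on KRT27 and KRT71 given above. The count was 3 of 6 without the sex term, 1 of 6 with no replicate block, 2 of 6 without polled replicate 2 and 0 of 6 without chip 2. Without polled replicate 2 the difference was −0.75 for KRT71, −1.05 for TCHH, −1.21 for PADI3 and 0.62 for GATA3. With chip 4 left out, KRT25 and KRT27 passed at −2.93 and −2.36 (adjusted p 0.0432 for both), and with polled replicates 2 and 4 left out they stood at −0.32 and 0.01. Among the polled animals left without chip 4, only polled replicate 2 was bright, so those passes rest on that animal.

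Sex was a term of the same fit. Male minus female stood at 2.35 for KRT25 (SE 0.782), 1.89 for KRT27 (SE 0.536), 0.85 for KRT71 (SE 0.259), 1.34 for TCHH (SE 0.505) and 1.20 for PADI3 (SE 0.362), each with an adjusted p of 1 (limma). GATA3 stood at −0.12 (SE 0.575). The only polled male is polled replicate 2, the brightest animal for each sheath gene, and without polled replicates 2 and 4 the values were 0.39 for KRT25 and 0.02 for KRT27. With chip 4 left out, KRT25 and KRT27 passed at 2.99 and 2.39 (adjusted p 0.0104 for both). Polled replicate 2 was then the only bright animal in the fit and its only polled male, so these values rest on it too.

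**Figure D2:**
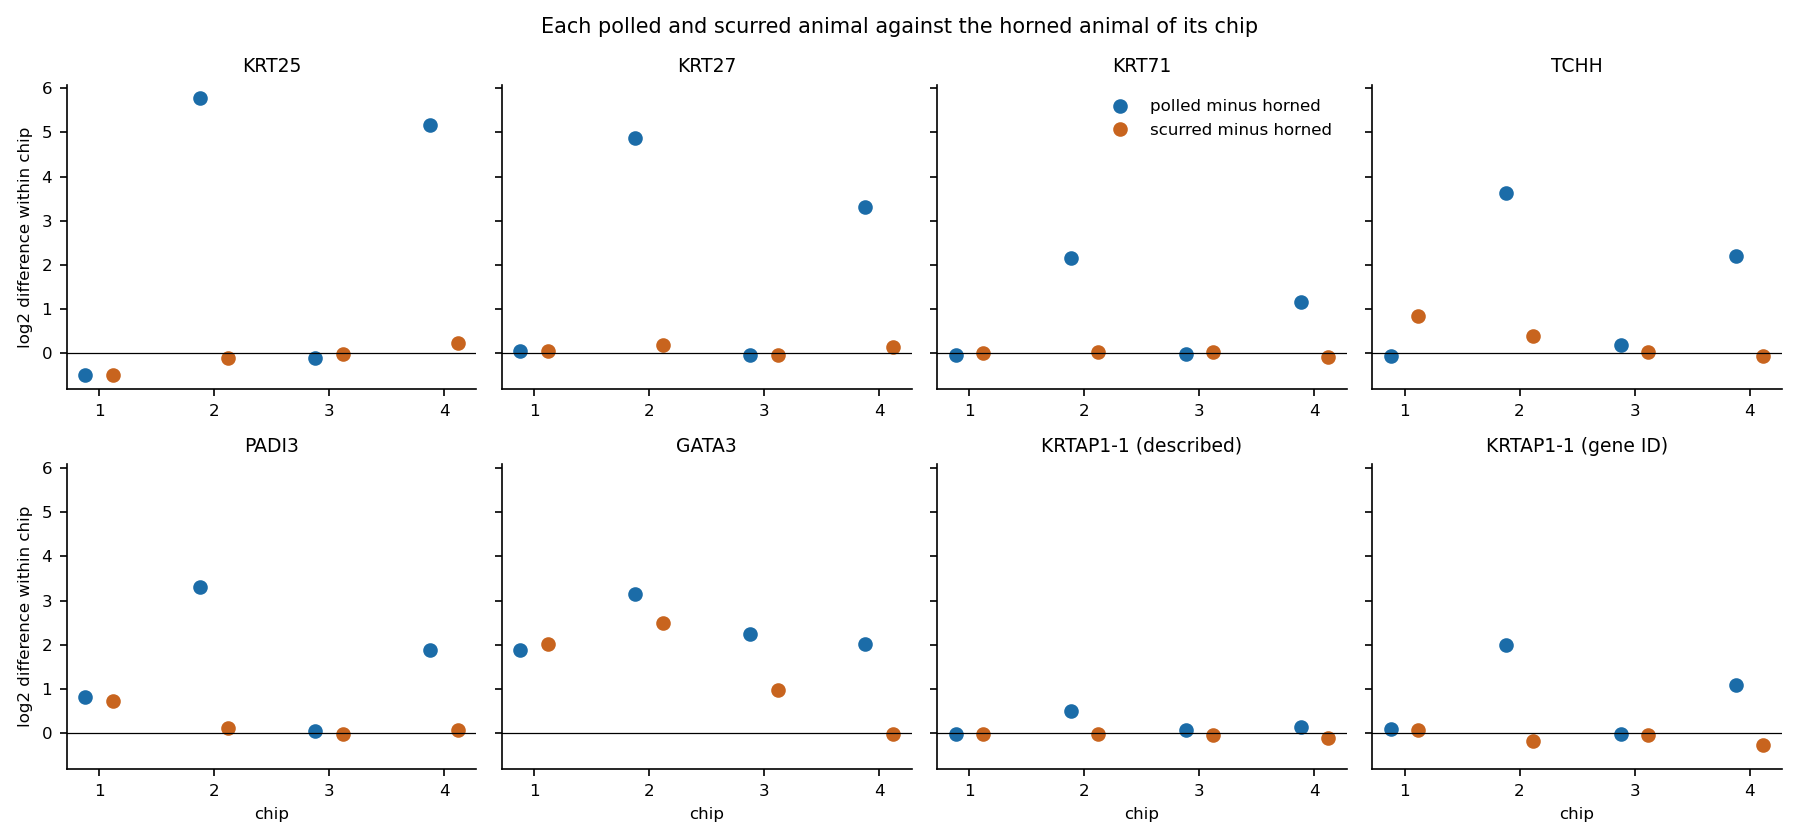
Log2 difference of each polled (blue) and scurred (orange) animal from the horned animal of its chip, 1 point per animal, for each member probe. The points of polled replicates 2 and 4 stand apart for KRT25 (5.77 and 5.16) and KRT27 (4.87 and 3.30), GATA3 is above 0 in 4 of 4 polled animals, and keratin points near 0 come in part from readings not well above background.

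The site comparison asks whether horn site skin differs from skin elsewhere on the skull of the same animal. In scurred replicate 2 the sheath genes were bright in the control-site skin and not at the horn site. KRT25 read 37880 and 23771 at the control site against 246 and 497 at the horn site on the same arrays, and KRT27 read 8445 and 4847 against 157 and 337. KRT71 read 1192 and 581 against 168 and 280, TCHH 7004 and 3273 against 242 and 661, and PADI3 3183 and 1509 against 142 and 359. Each control-site reading exceeded its partner on both dye orders.

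The log2 difference, horn site minus control site, in this animal was −6.16 for KRT25, −4.66 for KRT27, −1.81 for KRT71, −3.35 for TCHH and −3.15 for PADI3. GATA3 was −0.48. In polled replicate 3 the 3 keratins read 74 to 106 at both sites, with no spot pair well above background, and TCHH and PADI3 differed by −0.08 and −0.10. The animals thus did not share the difference, and over both the fit gave −3.08 for KRT25 (SE 1.72, adjusted p 0.963) and −2.34 for KRT27 (SE 1.30, adjusted p 0.963). With 2 animals, none of 15290 probes passed (limma, 0%), 405 being higher and 315 lower at an unadjusted p under 0.05. In scurred replicate 2 alone, 5 of the 6 members tested on chip 5 were over 1 lower at the horn site (1.07% of all probes). This describes an animal singled out for these genes and has no test. The 3 keratins passed the chip 5 filter through 2 RNAs only, this animal's bright control-site skin and its horn site skin read beside it. That limits both this count and their fitted site values.

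The same biopsies also differed in other tissue. In scurred replicate 2, the median of 7 skeletal muscle genes was 3.81 higher at the horn site, with ACTA1, the skeletal actin, at 5.71, and KRT10, a keratin of upper epidermis, was 3.92 higher there. In polled replicate 3 the muscle median was 0.66, with ACTA1 at −0.25, and KRT10 stood at −4.44. The median of 10 cornified epidermis genes was 0.56 in scurred replicate 2 and −1.19 in polled replicate 3, so KRT10 did not stand for its list. The part of these in the sheath gene values was not tested.

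**Figure D3:**
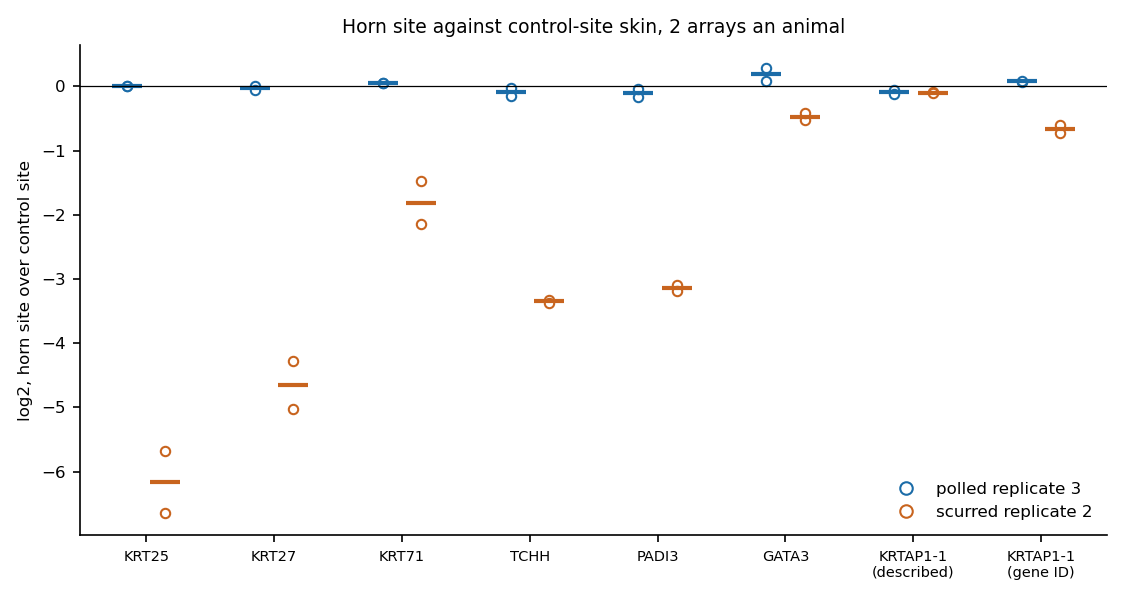
Log2 ratio of horn site over control-site skin for each member probe, with 2 arrays of opposite dye order per animal as open points and their mean as a bar. Scurred replicate 2 (orange) lies at −6.16 for KRT25 and −4.66 for KRT27, and polled replicate 3 (blue) lies near 0.

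GATA3 followed another order. Its separate-channel level, the mean log2 intensity of an animal after normalization between arrays, was 11.19, 13.05, 11.05 and 11.58 in polled replicates 1 to 4 and 9.27, 9.67 and 8.77 in horned replicates 1 to 3. The lowest polled animal was above the highest horned one, as in 4.58% of all probes tested. Scurred replicates 1 to 4 stood at 11.31, 12.31, 9.79 and 9.44, so this group overlapped both others. Control-site skin stood at 12.91 in scurred replicate 2 and 10.84 in polled replicate 3. The bright RNAs of the sheath genes were thus high for GATA3 too. Polled replicate 2 and the control-site skin of scurred replicate 2 were highest, but horn site skin of scurred replicate 2 exceeded polled replicate 4. Within chips the log2 differences were 1.89, 3.15, 2.24 and 2.01 in polled replicates 1 to 4. They were 2.02, 2.49, 0.98 and −0.02 in scurred replicates 1 to 4. GATA3 was above the horned animal in 4 of 4 polled and 3 of 4 scurred animals, and without polled replicates 2 and 4 its fitted polled difference was 0.05 with the sex term at −2.18.

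Basal keratinocyte genes stood beside GATA3 to differing degrees. The median of 10 such genes was 0.53, 0.91, 0.81 and 0.43 in polled replicates 1 to 4 and 2.51, 0.60, 0.45 and −0.23 in scurred replicates 1 to 4, and ITGB4, an integrin of the basal anchoring plaques, lay between −0.22 and 0.17 in polled animals. COL17A1, a collagen of the basal cell's anchoring plaques, differed from the horned animal by 2.49, 2.91, 2.70 and 2.81 in polled replicates 1 to 4 and by 3.97, 3.04, 1.56 and 0.18 in scurred replicates 1 to 4. KRT5 differed by 2.38, 3.44, 1.86 and 2.69 and by 5.19, 3.14, 0.94 and −0.66 in the same animals. The summed level of 10 basal keratinocyte genes, all measured, ranged from 110000 to 347000 in polled, 49500 to 694000 in scurred and 44100 to 70900 in horned animals. Scurred replicate 4, where GATA3 was level with the horned animal, was the lowest scurred animal by this sum.

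T-lymphocyte markers were mixed. Of 12 on the array, 7 were tested and CD3D, CD5, TBX21, IL7R and CCR4 were measured in no animal. The summed level of the 7 ranged from 2270 to 3380 in polled, 2730 to 2980 in scurred and 2320 to 3100 in horned animals, so these groups overlapped. CD3E, a chain of the T-cell receptor complex, differed by 0.61 to 0.93 in polled and 0.62 to 1.10 in scurred animals, and CD247, the brightest marker of the list, by −0.81 to 0.43 and −0.50 to 0.12. In polled minus horned, 3 of the 7 (CD3E at 0.72, CD3G at 0.79 and ZAP70 at 1.45) were higher at an unadjusted p under 0.05 (4.72% of all probes). None passed, and the median of the list was 0.04 beside 0.01 over all probes. The part of either cell type in the GATA3 difference was not tested.

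**Figure D4:**
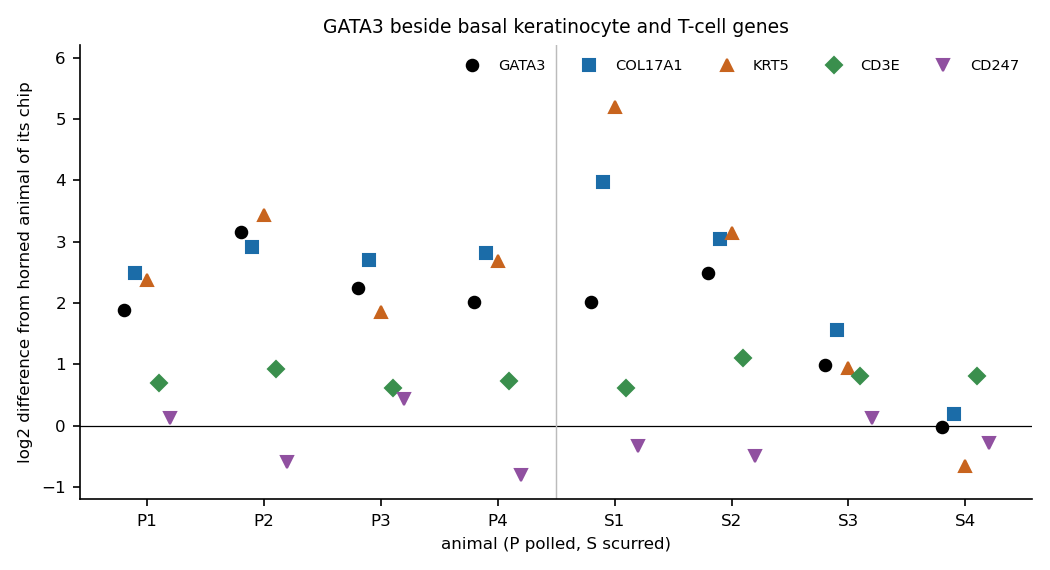
Log2 difference from the horned animal of the same chip for GATA3, the basal keratinocyte genes COL17A1 and KRT5 and the T-cell genes CD3E and CD247, 1 point per animal. GATA3 is lowest in scurred replicate 4 (−0.02), where COL17A1 is 0.18 and KRT5 is −0.66, and CD3E stays between 0.61 and 1.10.

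Other hair follicle genes were taken from 6 lists, with 63 genes on the array besides the members. None passed in polled against horned, scurred against horned, scurred against polled or horn site against control site (limma). All 7 tested inner root sheath keratins and partners were above 0 in polled minus horned, where 52.3% of all probes were, and 2 had an unadjusted p under 0.05 (4.72% of all probes). The list's median was 0.72 beside 0.01 over all probes. KRT26, a type I sheath keratin, differed by 0.18, 1.96, 0.01 and 0.31 in polled replicates 1 to 4, and KRT73, a type II one, by 0.10, 0.95, 0.00 and 0.31. Both were measured in 3 animals, the fewest the filter allowed, so the counts above do not stand for the whole list. KRT75, a keratin of the companion layer, differed by −1.93, 2.46, 1.16 and 1.60 in polled and by 0.98, 2.52, −0.33 and −0.90 in scurred animals, so it was high in scurred replicate 2 as well.

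At the ends of this list in polled minus horned stood TGM1, an epidermal transglutaminase, at 0.12 (SE 0.307) and TGM3, the transglutaminase of sheath and epidermis, at 1.29 (SE 0.923). In scurred minus horned KRT26 was lowest at −0.11 (SE 0.293) and TGM3 highest at 1.83 (SE 0.879), and in scurred minus polled they stood at −1.002 (SE 0.299) and 0.55 (SE 0.896). At the sites TGM3 was lowest at −0.86 and TGM1 highest at −0.09. TGM3 differed by 2.43 and 4.68 in polled and scurred replicate 1, animals in which the sheath keratins were not well above background.

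Among hair shaft keratins 6 of 11 on the array were tested, and all 6 were above 0 in polled minus horned (52.3% of all probes). Of them, 3 had an unadjusted p under 0.05 (4.72% of all probes), and the list's median was 0.37 beside 0.01 over all probes. KRT40 was measured in 3 animals and KRT38 in 4, at or near the filter's minimum, so these counts do not stand for the whole list. KRT40 was highest at 0.87 (SE 0.318, adjusted p 0.526) and KRT36 lowest at 0.05 (SE 0.188). KRT40 differed by 2.04 in polled replicate 2, 0.53 in polled replicate 4 and −1.42 at the sites of scurred replicate 2. KRT33A and KRT85, shaft cortex keratins measured in 2 animals and so not tested, differed by 3.92 and 1.18 in polled replicate 2, by 1.33 and 0.40 in polled replicate 4 and by −2.26 and −1.51 at the sites of scurred replicate 2. These genes were picked after their values were seen, and the list was not uniform. Of its 11 genes only KRT33A was over 1 in both polled replicates 2 and 4, and KRT36 stood at −0.41 and −0.11 there.

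In scurred minus horned, KRT31 was lowest of the shaft keratins at −0.13 (SE 0.163) and KRT81 highest at 0.14 (SE 0.191). In scurred minus polled KRT40 stood at −0.97 (SE 0.309) and KRT36 at 0.01 (SE 0.183), and at the sites KRT40 at −0.75 and KRT38 at −0.02. Of the shaft proteins, 4 of 5 were tested. KRTAP5-4 was highest in polled minus horned at 0.41 (SE 0.315) and in scurred minus horned at 0.23 (SE 0.30), and lowest at the sites at −0.13. KRTAP5-10 was lowest in polled minus horned at 0.08 and highest in scurred minus polled at −0.02 and at the sites at 0.08. SELENBP1, a selenium-binding protein, was lowest in scurred minus horned at −0.28 and in scurred minus polled at −0.67 (SE 0.377).

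Hair matrix and lineage factors had 9 of 13 genes tested, and SHH, EDAR and OVOL1 were measured in no animal. ST14, the membrane protease matriptase, was highest in polled minus horned at 1.84 (SE 0.633, adjusted p 0.506) and in scurred minus horned at 1.41 (SE 0.602), and lowest in scurred minus polled at −0.43. MSX2, a homeobox factor of the hair matrix, was lowest in polled minus horned at −0.34 (SE 0.196) and highest in scurred minus polled at 0.38 and at the sites at 0.23. FOXN1, the factor mutated in nude mice, was lowest in scurred minus horned at 0.03. CTSL, a lysosomal protease, was lowest at the sites at −1.44. HOXC13, a regulator of shaft keratins measured in 1 animal, differed by 0.65 in polled replicate 2 and by −0.12 to 0.09 in the other polled animals.

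The outer root sheath and stem cell list had 11 of 12 genes tested, 3 of them over 1 in polled replicates 2 and 4 and under −1 at the sites of scurred replicate 2. These were KRT15, a keratin of the bulge and basal layer (3.24, 2.60 and −1.11), LHX2, a stem cell factor (2.34, 1.49 and −1.27), and SOX9, a factor of the outer root sheath (2.36, 1.34 and −1.09). At the horn site of scurred replicate 2 they also exceeded the horned animal, by 2.39, 1.34 and 1.74, where the sheath keratins did not. The joint rule used animals singled out for the sheath genes, so its count is a description only. Its polled part alone was met by 2.77% of all probes and its site part alone by 1.07%. It was also met by 1 gene each of the inner root sheath, dermal papilla, sebaceous gland and melanocyte lists. KRT15 was highest in polled minus horned at 1.80 (SE 1.02) and lowest in scurred minus polled at −1.27 (SE 0.991). FGF18, a growth factor of resting follicles, was lowest in polled minus horned at −1.23 (SE 0.284, adjusted p 0.426) and in scurred minus horned at −0.79 (SE 0.27). It was lower than the horned animal in 4 of 4 polled and 4 of 4 scurred animals. Those differences share 3 horned animals, and how many of all probes did so was not counted. DIO2 was highest in scurred minus horned at 0.999 (SE 0.448), NFATC1 in scurred minus polled at 0.59, and CD34 highest and SOX9 lowest at the sites at 0.76 and −0.67.

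Of the dermal papilla genes 7 of 9 were tested, with a median of −0.36 in polled minus horned. FGF10 was lowest at −1.02 (SE 0.326, adjusted p 0.489) and WIF1, a WNT inhibitor, highest at 0.86 (SE 0.465). In scurred minus horned SOX2 was lowest at −0.50 (SE 0.137, adjusted p 1) and WIF1 highest at 0.65. In scurred minus polled WIF1 was lowest at −0.21 and RSPO3 highest at 0.99 (SE 0.402), and at the sites WIF1 stood at −0.63 and FGF10 at 0.49.

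**Figure D5:**
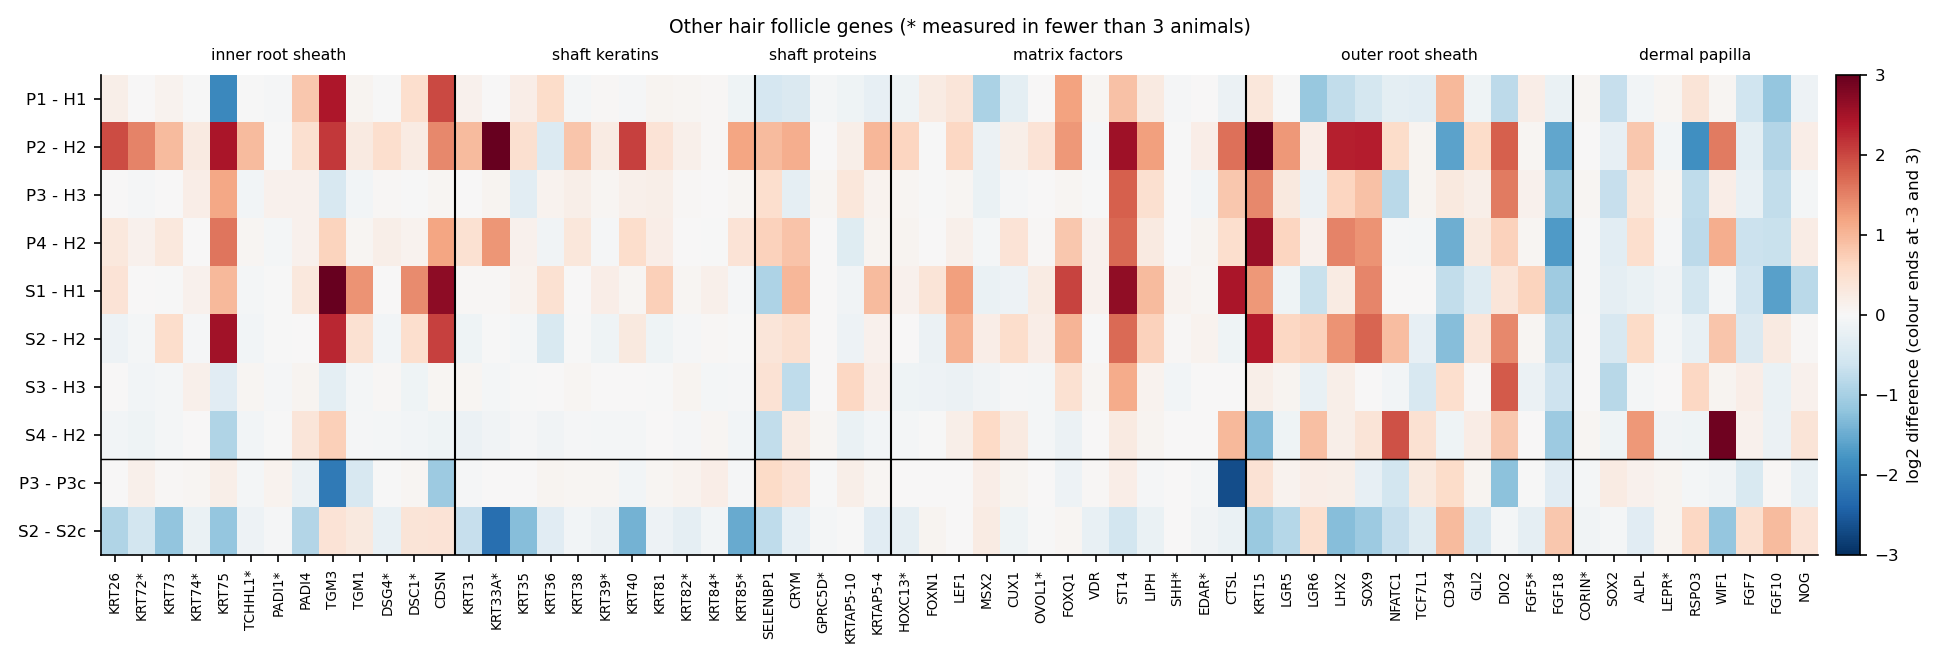
Colour map of log2 differences for 63 genes of 6 hair follicle lists (columns) in each polled and scurred animal against the horned animal of its chip, and, below the line, horn site against control site of 2 animals. KRT33A is reddest among the shaft keratins in polled replicate 2 (3.92) and blue at the sites of scurred replicate 2 (−2.26).

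The genes most like the sheath keratins were sought over the 8 within-chip differences, which share 3 horned animals and are dominated by 2 points. The mean difference of KRT25, KRT27 and KRT71 was −0.16, 4.26, −0.05 and 3.21 in polled replicates 1 to 4 and −0.15 to 0.10 in scurred animals, the values near 0 coming in part from readings not well above background. With this mean the Pearson correlation was 0.96 for TCHH, 0.94 for PADI3 and 0.49 for GATA3, given as a description. The 5 other named genes of highest correlation were ACAD11 (0.97), RALGPS1 (0.96), MARCHF5 (0.95), TOR1A (0.94) and GKAP1 (0.94). Their differences were far smaller than those of the keratins, at 0.98 and 0.80 in polled replicates 2 and 4 for ACAD11 and 0.47 and 0.38 for RALGPS1. At the sites of scurred replicate 2, which the choice did not use, ACAD11 was −0.45, RALGPS1 −0.31, MARCHF5 −0.25, TOR1A 0.05 and GKAP1 0.05. The 3 of lowest correlation were ZC3H11A (−0.96), C20ORF117 (−0.96) and SEPTIN2 (−0.93), with differences in polled replicate 2 of −0.38, −0.56 and −0.39.

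Markers of other cells stood beside the bright polled animals as follows. The median of 7 sebaceous gland genes was 1.81 and 0.87 in polled replicates 2 and 4 and 0.23 and 0.57 in polled replicates 1 and 3, and FASN, the fatty acid synthase, differed by 2.80 and 1.66 against −0.13 and 1.44. Of the 7, 6 were above 0 in polled minus horned (52.3% of all probes). FADS2 went the other way, at −2.17 and −0.92 in polled replicates 2 and 4 against 0.26 and −1.57 in polled replicates 1 and 3. The summed level of that list ranged from 25000 to 133000 in polled, 23600 to 67300 in scurred and 21000 to 26200 in horned animals, with polled replicate 2 the highest. The median of 9 fibroblast genes was −2.03 and −0.48 in polled replicates 2 and 4 against −0.87 and −0.19 in polled replicates 1 and 3, and COL1A2 differed by −2.25 and −0.27 against −0.87 and −0.60. PMEL, a melanocyte gene, differed by 2.53 and 1.14 there against 1.61 and 1.05 in polled replicates 1 and 3, and MCM2, the brightest of 11 cell cycle genes, by −0.37 and −0.73 against 0.32 and −0.94. The median of the cell cycle list was 0.00 and −0.48 against −0.48 and 0.11, so MCM2 did not stand for its list in polled replicates 1 and 3. The median of 10 cornified epidermis genes was 2.66 and 2.07 in polled replicates 2 and 4 against 3.76 and 0.55 in polled replicates 1 and 3, so it did not follow the sheath keratins. The part of these in the sheath gene differences was not tested.

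The KRT25 identifier also holds a probe described as keratin 24, an epidermal keratin, which did not follow the sheath pattern. It was well above background in all 40 readings, at 275 to 5399. Its log2 differences were −0.19, −1.14, −2.41 and −0.10 in polled replicates 1 to 4 and −2.44, −0.54, −0.64 and −1.48 in scurred replicates 1 to 4, below the horned animal in 8 of 8. These 8 differences share 3 horned animals, and how many of all probes did so was not counted. The fit gave −1.15 for polled minus horned (SE 0.692, adjusted p 0.628) and −1.31 for scurred minus horned (SE 0.658, adjusted p 1).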

How the data were processed

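Mean and background intensities of both dyes are linear values from the deposited scanner files, made with Agilent Feature Extraction 9.5.1 per the submitters' processing notes. The deposited processed intensities were background subtracted and dye normalized per the file headers. The deposited log10 ratios of the scanner files and of the series' value table are red over green (14 columns) or turned (6 dye-swapped columns). Between 62.24% and 73.75% of an array's spots exceeded background in a dye, no more than 2 were saturated, and precision is limited by how few animals there were. No genome build is given in the sources used here, so no position is printed.

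Here intensities were corrected by normexp (offset 50) and loess in limma 3.58.1 (R 4.3.3), flagged spots were left out and duplicate spots averaged. Names came from gene identifiers (9717 probes), accessions (3398), descriptions (3668) and symbols (153) matched to RefSeq's ARS-UCD2.0 gene table, and 4539 of 21475 kept none. A probe was tested when at least 0.5 of an animal's spots were well above background in at least 3 of 11 animals (15709 probes), or in at least 2 of 4 RNAs of chip 5 (15290). The arrays of a chip gave each polled and scurred animal's difference from its horned animal with a term for dye, and generalized least squares on these 8 differences estimated a polled, a scurred and a male term. limma moderated it (two-sided, 5 residual degrees of freedom), with Benjamini-Hochberg adjustment across every tested probe and a threshold of 0.05. Alternatives changed the background correction, centring, filter, flagged spots, probe choice, sex term, block and samples, and used the deposited value table. The site comparison set the mean of 2 animals against 0. The steps were tested on simulated data.

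Replicate numbers are chip numbers, and deviations of the polled and scurred animal of a chip correlated at 0.237, 0.287, 0.424 and −0.0842 across probes, so pairing rests on the chip as hybridisation unit. Chip 1 was scanned on another day. Values per animal are not adjusted for sex. Members, gene lists and the rule for named genes (the members, the lowest and highest gene of each hair list per comparison, the 5 most and 3 least correlated genes, and the brightest marker of other cell types) were chosen with earlier results of these data known. COL17A1, ITGB4, CD3E, CD3G, ZAP70, KRT73, KRT33A, KRT85, HOXC13 and LHX2 were added after their values were seen.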

Additional observations from a re-analysis of the deposited data

Results flagged for a closer look

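PADI3 in scurred replicate 1 lay apart from the other scurred animals, at 0.72 against −0.01 to 0.11, a gap of 0.835 of the group's range, just past Dixon's 95% critical value for 4 samples. Chance alone gives such a gap in about 1 of 20 groups, and 18 were examined. For GATA3 the horn site stood above the control site in polled replicate 3 (0.19) and below it in scurred replicate 2 (−0.48) on both arrays of each animal. The keratin 24 probe of the KRT25 identifier did likewise at 0.74 and −0.29. With 1 animal on each side these differences between animals were not tested.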

How the results depend on the processing

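No member passed in polled minus horned or scurred minus horned under any alternative, and none of the other hair genes passed without the filter or with median centring. KRT25 and KRT27 passed in scurred minus polled and in male minus female only with chip 4 left out, so the count of members past the threshold ranged from 0 to 2 in those comparisons with a chip or animal left out. In the fit without chip 4, polled replicate 2 was the only bright animal. The cause was not tested. With separate channels and no replicate block, scurred minus horned turned to 0.041 for KRT27, 0.21 for TCHH and 0.14 for PADI3. It also turned for TCHH and PADI3 with processed intensities (0.38 and 0.14), without the sex term (0.13 and 0.10) and with the deposited value table (0.38 and 0.14), where KRT27 stood at 0.85 and male minus female for KRT27 at −0.29. That table also moved KRT27 to 5.43 in polled minus horned and −4.58 in scurred minus polled, and averaging both KRT25 probes moved KRT25 to 0.97, to −2.01 and, at the sites, to −1.43. Without the sex term, scurred minus polled was −0.82 for KRT71 and −1.19 for TCHH, and median centring moved GATA3 at the sites to −0.47. Without polled replicates 2 and 4, added after the data were seen, polled minus horned turned for KRT71 (−0.14) and TCHH (−0.43). Scurred minus horned was then 0.07 for KRT27, 0.023 for KRT71, 0.42 for TCHH and 0.27 for PADI3. Scurred minus polled was 0.007 for KRT27, 0.16 for KRT71, 0.85 for TCHH, 0.004 for PADI3 and 1.78 for GATA3, and male minus female −0.12 for KRT71, −0.48 for TCHH and −0.12 for PADI3.

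With 1 chip or animal left out, polled minus horned ranged from 2.57 to 3.54 for KRT25, 1.97 to 2.78 for KRT27, 0.63 to 1.14 for KRT71, 1.16 to 2.16 for TCHH, 1.29 to 2.06 for PADI3 and 1.02 to 2.59 for GATA3. Signs turned in scurred minus horned, at −0.692 to 0.07 for KRT27, −0.363 to 0.023 for KRT71, −0.469 to 0.418 for TCHH and −0.351 to 0.273 for PADI3. They also turned for GATA3 in scurred minus polled (−1.782 to 0.62) and male minus female (−1.53 to 0.567), and with either animal alone at the sites for KRT71 (−1.81 to 0.053) and GATA3 (−0.475 to 0.191).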
